A study of Saccharomyces cerevisiae with 14 samples.

Results

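The protein genes of the large ribosomal subunit of budding yeast were followed through Rad52 ChIP-seq peak lists. The genes were taken by symbol, as nuclear genes named RPL and a number together with the stalk genes RPP0, RPP1A, RPP1B, RPP2A and RPP2B, which gave 81 of 6431 nuclear genes. Of these, 66 form 33 pairs of A and B copies, 10 are single copy and 5 encode the stalk. For each gene and each of 14 libraries, the overlap with a peak of at least 1 bp, the rank of the peak's score within its own list, and the reach of the peak past the 5′ and 3′ gene ends were measured. Rad52, precipitated here with an antibody from the D. Bishop Lab, loads the recombinase onto damaged DNA, and the study reads its position as a mark of damage caused by DNA-RNA hybrids.

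The combined mutants were h1D-h2D Sen1-AID cells and h1D-h2D Top1-AID cells, with 2 libraries each. They were set against 7 other libraries, namely 2 of Sen1-AID, 2 of h1D-h2D, 1 of Top1-AID and 2 of wild type (WT). All 11 libraries carry the background label 288C and a treatment label of auxin, WT and h1D-h2D included. The protocol gives 0.5 µM for 4 h, for indicated cells only, and the titles of WT and h1D-h2D do not mention auxin, so whether those 4 libraries received it is less certain. h1D-h2D was read as the loss of RNH1 and RNH201, the RNase H genes that the design names. AID is a degron that marks Sen1, a DNA-RNA helicase, or Top1, a topoisomerase, for destruction when auxin is added. The other 3 libraries come from a Gal-HO strain in the JKM background, 2 grown in 2% galactose and 1 in dextrose. Galactose switches on the HO endonuclease in that strain. The labels do not say whether WT carries the auxin receptor, whether a strain is 1 clone or whether replicates are separate cultures, so p-values measure spread between these samples, which may be technical. The tests count libraries of the same strain as independent and join different genotypes within each group, so they may overstate the evidence.

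Ribosomal protein genes are among the most heavily transcribed genes of growing yeast, and most exist as pairs of near-identical copies left by a genome duplication. Rap1, Fhl1 and Ifh1 bind their promoters and adjust them to nutrients. Heavy transcription favours DNA-RNA hybrids behind RNA polymerase, where the nascent RNA pairs with its template, and RNases H, Sen1 and Top1 each limit such hybrids in a different way.

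The 14 lists held 7181 peaks, 5 of them mitochondrial. Nuclear peaks numbered 254 to 305 in the 4 combined-mutant libraries, 454 to 731 in the other 7 auxin libraries, and 544 to 637 in the Gal-HO libraries. Read depth is unknown, so a shorter list may reflect fewer reads or less binding, which cannot be told apart. Sen1-AID replicate 2 stood apart from its own group. It had 454 nuclear peaks, against 731 in Sen1-AID replicate 1, and its peaks over these genes had a median width of 1649 bp, against 3022 bp in replicate 1. At 24 of the 81 genes it had no peak, where Sen1-AID replicate 1 had one at all 81. Its label was followed, and whether the label is right was not tested. Several values that rest on it are also given without it, and the rest include it. Gene ends are the RefSeq coding ends with introns included, so untranslated regions lie outside the gene. Reads from identical stretches of A and B copies may have been placed on either copy. Their part in the results was not tested.

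In WT the genes were almost completely occupied. Peaks covered 79 of 81 genes in each WT library, and the same 79 in both, beside 27.5% and 23.2% of all nuclear genes. All 79 had a single peak that spanned the gene from end to end. The median reach was 967 and 760 bp past the 5′ end and 765 and 704 bp past the 3′ end. Other coding genes with a single peak had similar median reaches, 897.5 and 622 bp at the 5′ end and 778 and 721 bp at the 3′ end, yet 32.9% and 35.4% of them had the peak over the 3′ end only. The ribosomal genes are shorter, with a median of 795 bp against 1200 bp for all coding genes, and the part of length in this contrast was not tested. Nearly every peak also covered a neighbour: 76 of 77 peaks in WT replicate 1 and 73 of 77 in replicate 2 overlapped another coding gene. Such peaks cannot be assigned to 1 gene, and 1 peak in WT replicate 1 and 4 in WT replicate 2 covered no other gene.

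The scores of these WT peaks ranked high in their lists, with median percentiles of 80.9 and 80.7. Of the 79 genes, 23 and 24 stood at or above the 90th percentile. RPL8A (chromosome VIII, 35255 to 36025), which encodes the eL8 protein, was highest in the mean of both libraries, at percentiles of 98.9 and 99.7. RPL28, whose product is the site of cycloheximide resistance mutations, followed at 98.3 and 98.7, and RPL33B at 99.1 and 97.9. The RPL33B peak also covered SNR17A, a gene of the U3 snoRNA that lies 701 bp upstream on the opposite strand. RPL39, which encodes a small protein at the exit of the nascent peptide tunnel, stood at 97.7 and 96.4 under a peak about 4 kb wide (4204 and 4088 bp) that it shared with RPS14B, RPS22A, SOP4 and SWE1. RPL7B, with SNR59 inside the gene, stood at 97.9 and 94.5, and RPL27B, with SNR13 354 bp downstream, at 97.4 and 94.7. Of the 81 genes, 11 have a snoRNA or snRNA gene inside them or within 2000 bp.

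Removing a single activity left peaks over 79 to 81 of the genes in 4 of 5 libraries and over 57 in Sen1-AID replicate 2. Sen1-AID covered 81 and 57 genes, beside 29.6% and 15.7% of all nuclear genes. h1D-h2D covered 79 and 79, beside 25.8% and 20.4%, and Top1-AID covered 80, beside 21.3%. None of the 79 genes with peaks in both WT libraries lacked a peak in every library of Sen1-AID, of h1D-h2D or of Top1-AID, where the shares over 1405 genes with peaks in both WT libraries were 3.63%, 3.13% and 15.8%. That count of 0 depended on list length: with lists of equal length, the 254 highest-scoring peaks of each, 14 of the 63 genes then covered in WT lost their peak in Sen1-AID (22.2%, beside 12.8% of all genes covered in WT), 3 in h1D-h2D (4.76%, beside 4.11%) and 5 in Top1-AID (7.94%, beside 13.3%). Without Sen1-AID replicate 1 it was 22 in Sen1-AID. Sen1-AID replicate 2 lacked 22 of the 79 genes (27.8%, beside 34.4%), and 17 of those 22 had no peak in any combined mutant either (77.3%, beside 67.1% of all such genes).

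In h1D-h2D and Top1-AID the median peak borders over these genes lay near those of WT, and Sen1-AID replicate 2 stood apart at the 5′ side. In h1D-h2D the median 5′ reach was 915 and 674 bp and the median 3′ reach 756 and 660 bp. The 5′ reach was shorter in both h1D-h2D libraries than in both WT libraries at 13 of 79 genes, beside 17.7% of all genes measured, and the 3′ reach at 10 of 79, beside 16.7%. In Top1-AID the medians were 829.5 and 678.5 bp, and the single library had a shorter 5′ reach than both WT libraries at 36 of 79 genes, beside 50.8%. Its 3′ reach was shorter than in both WT libraries at 54 of 79 genes (68.4%), beside 55.1%. Sen1-AID replicate 1 had medians of 868 and 747 bp, whereas replicate 2 had 211 and 545 bp. Both Sen1-AID libraries had a shorter 5′ reach than both WT libraries at 22 of 57 genes, beside 29.9%. With 2 libraries against 2, no two-sided exact test can go below p = 0.333, so these counts carry no test.

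In the combined mutants 39 to 53 of the 81 genes had no peak in a library, against 0 to 24 in the 7 others. h1D-h2D Sen1-AID cells covered 28 and 33 of the 81 genes, beside 12.3% and 12.9% of all nuclear genes, and h1D-h2D Top1-AID cells covered 42 and 34, beside 10.7% and 8.85%. All 4 values lay below the 57 to 81 genes of the 7 other libraries. The mean was 34.3 ± 5.80 genes in the combined mutants (SD, n = 4) and 76.3 ± 8.54 genes in the others (SD, n = 7), a difference of -42.0 genes. Without Sen1-AID replicate 2 the others averaged 79.5 genes. Over all nuclear genes the mean share was 11.2% in the combined mutants, as against 23.3% in the others. With every list shortened to 254 peaks, h1D-h2D Sen1-AID cells covered 28 and 30 genes and h1D-h2D Top1-AID cells 37 and 34, against 49 and 33 in Sen1-AID, 65 and 55 in h1D-h2D, 64 in Top1-AID, and 69 and 66 in WT. The difference was then -25.0 genes, and Sen1-AID replicate 2, with 33, lay within the range of the combined mutants.

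**Figure D1:**
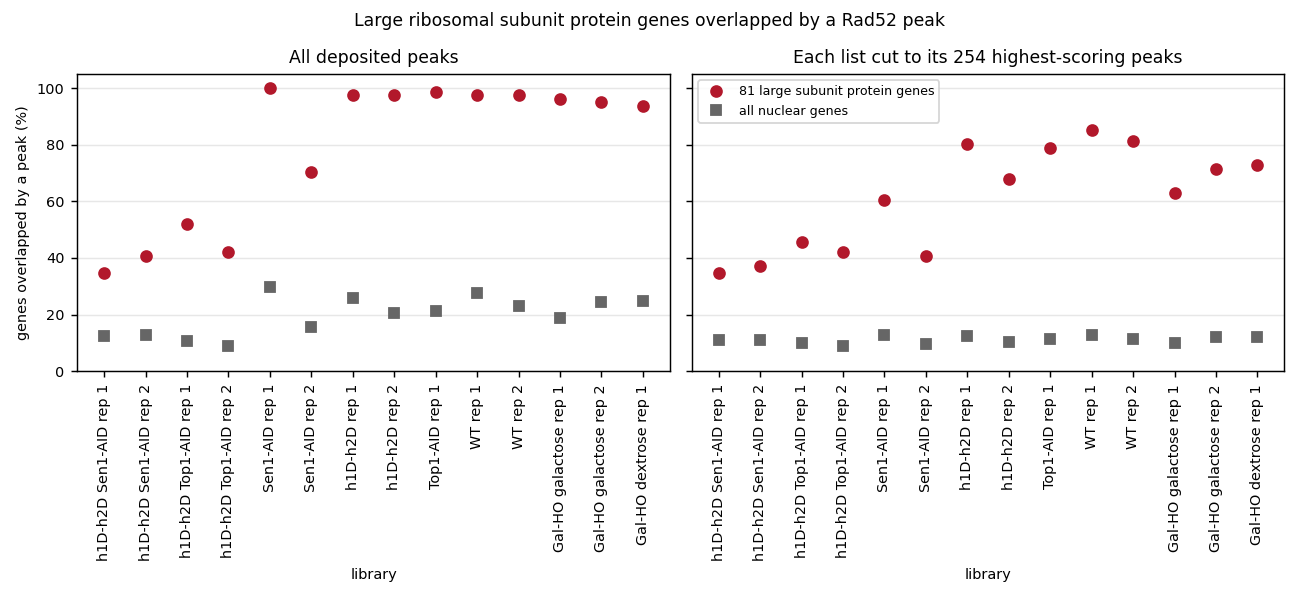
Share of the 81 large subunit protein genes (red circles) and of all 6431 nuclear genes (grey squares) overlapped by a Rad52 peak, in percent, for each library, with all deposited peaks (left) and with the 254 highest-scoring peaks of each list (right). The 4 combined-mutant libraries lie lowest for the 81 genes on the left, at 28 to 42 genes, and on the right Sen1-AID replicate 2 lies among them.

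Gene by gene, no loss passed the correction. Of 2457 genes with a peak in at least 1 auxin library, Fisher's exact test (two-sided, 4 against 7 libraries, Benjamini-Hochberg adjustment) called 0 genes, or 0%, in either direction, 0 of the 81 among them. The smallest adjusted p was 0.0524, shared by the 142 genes present in all 7 other libraries and in no combined mutant. At an unadjusted p below 0.05, 35 of the 81 genes had a peak less often in the combined mutants, beside 482 of all genes tested or 19.6%, and 0 of the 81 more often, beside 7 genes or 0.285%. Without Sen1-AID replicate 2 the same test with adjustment called 305 of 2451 genes tested less often covered, 28 of the 81 among them, and 1 more often. With only genes present in at least 4 auxin libraries it called 142 genes and 11 of the 81. These were the genes present in all 7 other libraries and in no combined mutant. They made up 18.6% of all genes present in all 7, and 19.3% of the 57 ribosomal genes present in all 7.

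Against all genes occupied in WT, and with the full lists, the share of ribosomal genes without a peak was close to the background in 1 combined mutant and below it in the other. In h1D-h2D Sen1-AID cells both libraries lacked 43 of the 79 genes that had a peak in both WT libraries (54.4%), where the share over all such genes was 54.1%. In h1D-h2D Top1-AID cells both libraries lacked 32 of the 79 (40.5%), where it was again 54.1%. With only peaks at or above the median score of all lists pooled, the share in h1D-h2D Top1-AID cells was no longer lower, at 57 of 74 (77%, beside 76.4%), and with lists of equal length it was 24 of 63 (38.1%, beside 39.6%). Both strains lacked 28 of the 79 (35.4%, beside 39.4%), and 15 of the 79 kept a peak in all 4 libraries (19.0%, beside 17.7%).

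Of the 4 stalk genes with a peak in both WT libraries, 3 had no peak in any combined mutant, where the share over all genes covered in WT was 39.4%. The fifth stalk gene, RPP2B, was bare in WT as well. RPP0 encodes the base of the stalk that recruits translation factors, and RPP1A, RPP1B, RPP2A and RPP2B encode the acidic proteins bound to it. The combined mutants covered 0.75 ± 0.50 of the 5 genes on average (n = 4), and the other auxin libraries 3.86 ± 0.900 (n = 7). RPP0 (chromosome XII, 805887 to 806825) had no peak in any combined mutant, whereas its percentiles were 68.1 and 57.9 in Sen1-AID, 83.6 and 70.9 in h1D-h2D, 81.7 in Top1-AID, and 85.7 and 87.7 in WT. All 7 of those peaks ended between 447 and 668 bp past its 3′ end. RPP2A and RPP1B were likewise bare in all 4 combined mutants, and each had a peak in 6 of the 7 others, Sen1-AID replicate 2 being the exception. RPP1A kept a peak in both libraries of h1D-h2D Sen1-AID and also in h1D-h2D Top1-AID replicate 1, but it faces RPL13A across 413 bp and shared its peak with that gene. RPP2B had a peak in Sen1-AID replicate 1 only, 4500 bp wide and shared with YRA1, ARO10, COI1 and NKP1. RPP2B and RPL15B were the 2 genes bare in WT. Neither had a peak in every library of a mutant group except RPL15B in the single Top1-AID library, beside 0.764% of genes bare in WT for Top1-AID, 2.71% for h1D-h2D Sen1-AID, 0.284% for h1D-h2D Top1-AID, 0.59% for Sen1-AID and 0.371% for h1D-h2D.

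Besides RPP0, the genes with a peak in all 7 other libraries and in no combined mutant included RPL36B, RPL23A, RPL8B, RPL31B, RPL6A, RPL24B, RPL22A and RPL34A. There were 11 of them among the 81 (13.6%), beside 5.78% of all genes tested. Among the 57 that were present in all 7 they were 19.3%, beside 18.6% of all genes present in all 7. Their Fisher p was 0.00303 each, the smallest that 4 against 7 libraries allow, with an adjusted p of 0.0524. At the other end, 14 of the 57 kept a peak in all 4 combined mutants (24.6%, beside 29.3%). These 14 genes had a peak in all 14 libraries of the study, led by RPL8A, RPL3, RPL2B, RPL31A, RPL42B and RPL32. RPL8A stood at percentiles between 94.5 and 99.7 in 13 libraries and at 65.9 in Gal-HO dextrose. RPL3, which encodes a protein that reaches toward the peptidyl transferase centre, stood at 97.2 and 94.1 in h1D-h2D Sen1-AID cells, 94.7 and 91.3 in h1D-h2D Top1-AID cells, and 91.3 and 98.2 in WT.

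Copies of the same protein were compared by their peaks in the combined mutants. Of the 66 paired genes, 23 had a peak in 0 of the 4 libraries, 9 in 1, 10 in 2, 13 in 3 and 11 in all 4. Whether unrelated genes differ as often as copies was not tested, so the counts below are not a result about pairs. Of the 33 pairs, 18 had copies that differed by 2 or more of the 4 combined-mutant libraries, 6 had copies present in the same number, and in 5 pairs 1 copy kept its peak in all 4 libraries while its partner had none. Those 5 were RPL8A over RPL8B, RPL12A over RPL12B, RPL31A over RPL31B, RPL34B over RPL34A and RPL35A over RPL35B. In each of them the kept copy also had the higher mean percentile in WT: 99.3 for RPL8A and 75.5 for RPL8B, 87.4 for RPL12A and 70.9 for RPL12B, 91.4 for RPL31A and 66.1 for RPL31B, 90.7 for RPL34B and 34.0 for RPL34A, and 88.3 for RPL35A and 25.1 for RPL35B. In 4 pairs neither copy had a peak in any combined mutant, and in 0 pairs did both copies keep all 4.

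Across the whole set the relation was looser, and it is given as a description. The 30 genes with no combined-mutant peak had a median WT percentile of 68.2, those with peaks in 1, 2 or 3 libraries had 80.4, 92.1 and 80.3, and the 15 with peaks in all 4 had 90.7. The ranges overlapped widely, from 25.1 to 97.1 at 0 libraries and from 69.0 to 99.3 at 4. RPL39, at a mean WT percentile of 97.1, had no peak in any combined mutant, although RPS14B and RPS22A under the same WT peak kept one in all 4. Among the genes with peaks in both WT libraries, a convergent coding gene lay downstream of 10 of 28 without a combined-mutant peak (35.7%), beside 46.1% of all such coding genes. It lay downstream of 4 of 9, 3 of 13 and 8 of 14 with peaks in 1, 2 and 3 libraries (44.4%, 23.1% and 57.1%), beside 47.2%, 50% and 57.9%, and of 10 of 15 with all 4 (66.7%), beside 66.1%. The share thus did not rise at each step in the set.

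**Figure D2:**
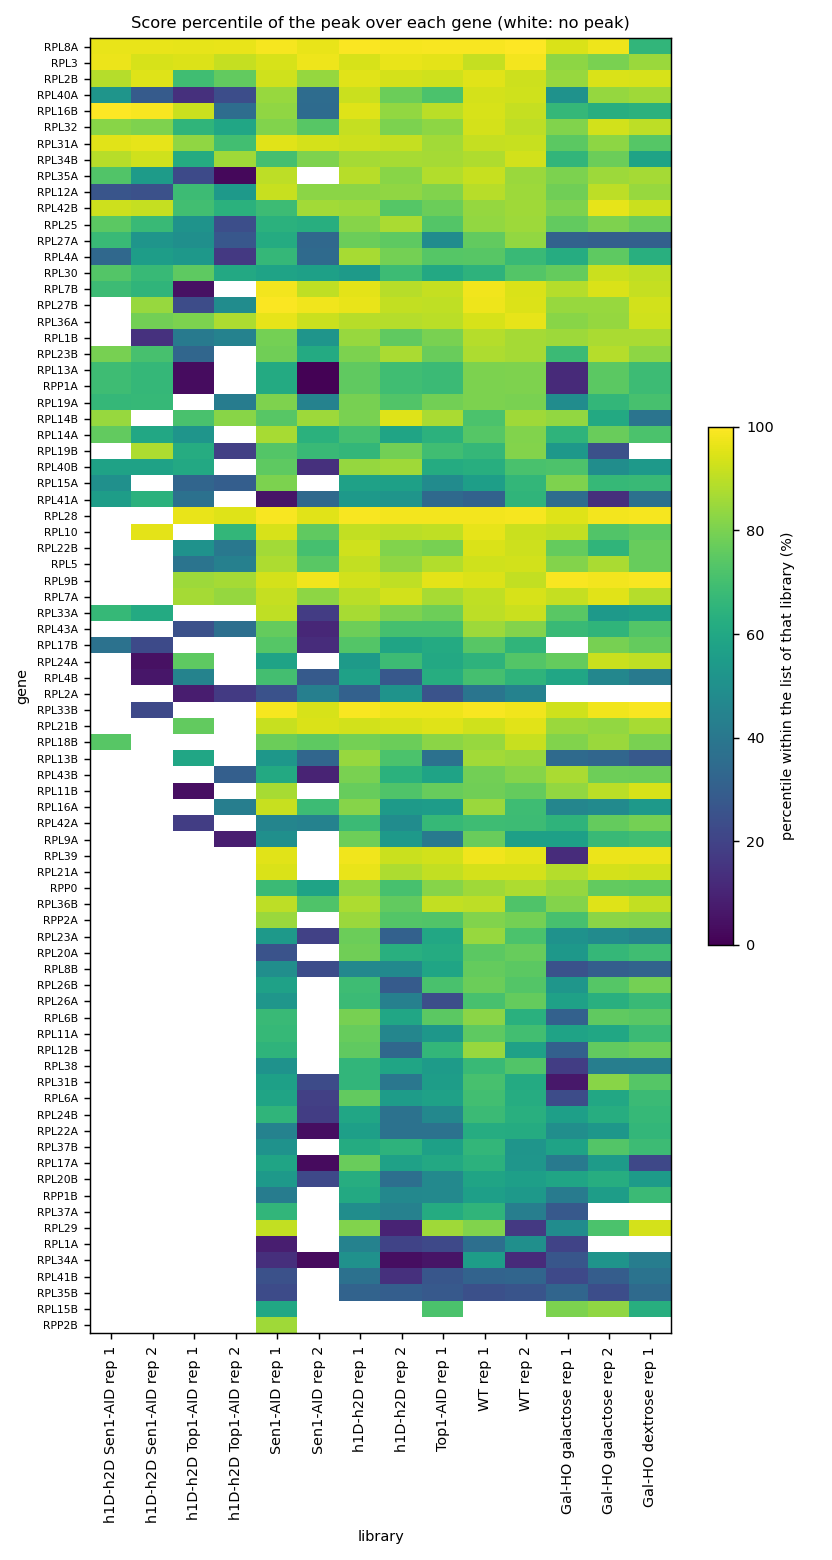
Score percentile within its own list (colour, 0 to 100) of the peak over 80 of the 81 genes (rows) in each of the 14 libraries (columns), with white where no peak overlapped the gene and rows ordered by the number of combined-mutant libraries with a peak. The white block at lower left is the 30 genes without a peak in any combined mutant, and 24 white cells lie in the column of Sen1-AID replicate 2.

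Some genes had a peak in 1 combined mutant and not in the other, a difference that was not tested gene by gene. A group of 8 genes had no peak in h1D-h2D Sen1-AID cells and a peak in both h1D-h2D Top1-AID libraries (10.1% of 79, beside 7.69% of all genes with peaks in both WT libraries), and 2 genes showed the reverse (2.53%, beside 8.61%). RPL28 belonged to the first group. It had no peak in either h1D-h2D Sen1-AID library, and its percentiles were 96.8 and 95.3 in h1D-h2D Top1-AID cells, 98.9 and 95.6 in Sen1-AID, 99.1 and 98.1 in h1D-h2D, 98.2 in Top1-AID, and 98.3 and 98.7 in WT. Its peak was thus among the highest of every list but the 2 in which it was missing. RPL5, whose product binds the 5S rRNA, and RPL22B behaved alike but stood lower in h1D-h2D Top1-AID cells, with RPL5 at 38.3 and 43.7 and RPL22B at 51.1 and 40.2. In WT, RPL5 stood at 92.9 and 93.0 and RPL22B at 94.3 and 92.5. RPL33A and RPL17B formed the reverse group. RPL33A stood at 67.1 and 61.0 in h1D-h2D Sen1-AID cells, and had no peak in h1D-h2D Top1-AID cells, against 89.9 and 91.9 in WT. Percentiles from lists of different lengths show no change by themselves.

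Where a peak remained in the combined mutants, it reached less far past the 5′ end of the gene. The median 5′ reach came to -84.5 and 0 bp in h1D-h2D Sen1-AID cells, and 363.5 and -23.5 bp in h1D-h2D Top1-AID cells, where a negative value means that the peak stopped short of the gene end. It was 211 bp in Sen1-AID replicate 2 and 674 to 967 bp in the 6 remaining libraries. Over other coding genes with a single peak the median was lower as well, at 4 to 303.5 bp in the combined mutants. It was 377 to 897.5 bp there in the other auxin libraries. The mean of these medians differed by -513 bp over other coding genes, beside -682 bp over the ribosomal genes. Peaks over the 3′ end only made up 18 of 28 and 16 of 33 genes in h1D-h2D Sen1-AID cells, and 8 of 42 and 18 of 34 in h1D-h2D Top1-AID cells, against 0 of 81 and 16 of 57 in Sen1-AID, 0 of 79 and 1 of 79 in h1D-h2D, 0 of 80 in Top1-AID, and 0 of 79 in each WT library. The mean share was 46.2 ± 19.3% (n = 4) in the combined mutants, as against 4.19 ± 10.5% (n = 7) in the others, or 0.211% without Sen1-AID replicate 2. Over other coding genes it was 44.6 ± 3.83% in the combined mutants, as against 34.7 ± 3.12% in the others. Peaks over the 5′ end only were seen at 0 or 1 gene in each auxin library.

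**Figure D3:**
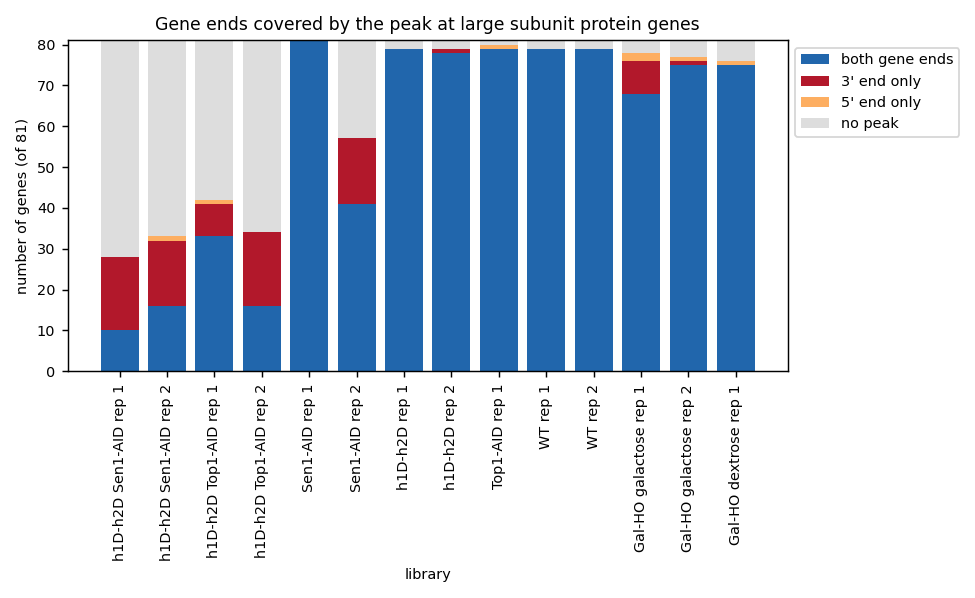
Number of the 81 genes whose peak covered both gene ends (blue), the 3′ end only (red) or the 5′ end only (orange), or that had no peak (grey), for each library. Genes with the 3′ end only number 8 to 18 in the combined mutants, and 16 in Sen1-AID replicate 2.

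Tested gene by gene, the shorter 5′ reach was called at some of these genes. Of the 81 genes, 29 had a single peak in at least 3 combined-mutant libraries and at least 4 of the others, so the test covers those that kept their peaks. By the exact permutation test over 330 splits of 4 against 7 libraries, with Benjamini-Hochberg adjustment over 399 genes, 16 of the 29 (55.2%) had a shorter 5′ reach in the combined mutants, beside 87 genes or 21.8% of all genes tested, and 13 were not called. None of the 29 had a longer reach, beside 11 genes or 2.76%. At an unadjusted p below 0.05 by the same exact test, 22 of the 29 were shorter, beside 37.8%, and 0 longer, beside 6.02%. In the mean, 27 of the 29 were shorter, beside 68.4%. The median difference was -761 bp over the 29 and -88.8 bp over the other genes tested. Small subunit protein genes moved alike, 14 of 23 being called with a median of -832 bp. The genes tested also include tRNA and snoRNA genes, and neighbours under the same peaks. For a neighbour on the opposite strand, the same border counts as a 3′ change. SNR63 had a 3′ difference of -702 bp, the value of RPL31A at the 5′ end. The other genes tested are thus not an independent background. Peaks over the 81 genes had median widths of 2435 and 2133 bp in h1D-h2D Sen1-AID cells, 1893 and 1472.5 bp in h1D-h2D Top1-AID cells, and 1649 to 3022 bp in the others, and the part of peak width in the 5′ reach was not tested.

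RPL27A encodes the eL27 protein. Its 5′ reach came to -226 and 0 bp in h1D-h2D Sen1-AID cells, and 137 and -91 bp in h1D-h2D Top1-AID cells, against 838 and 194 bp in Sen1-AID, 830 and 790 bp in h1D-h2D, 821 bp in Top1-AID, and 887 bp in both WT libraries. The groups did not overlap. The mean was -45.0 ± 153 bp in the combined mutants (SD, n = 4) and 750 ± 247 bp in the other libraries (SD, n = 7), a difference of -795 bp by the exact permutation test (adjusted p = 0.0442). The same adjusted p holds for all 16 genes called.

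RPL25 (chromosome XV, 80348 to 81190) encodes a protein beside the mouth of the peptide tunnel that docks the signal recognition particle. Its 5′ reach came to 122 and -59 bp in h1D-h2D Sen1-AID cells, and 31 and -187 bp in h1D-h2D Top1-AID cells, against 817 and 281 bp in Sen1-AID, 941 and 790 bp in h1D-h2D, 905 bp in Top1-AID, and 947 and 849 bp in WT. The groups were again separate, with a difference in means of -813 bp. RPL12A, whose product sits at the base of the stalk, reached -65 and -77 bp in h1D-h2D Sen1-AID cells, and 79 and -46 bp in h1D-h2D Top1-AID cells, against 294 to 1074 bp in the 7 others, a difference of -890 bp. RPL31A, whose product lies near the tunnel exit, reached -112 and -61 bp in h1D-h2D Sen1-AID cells, and -42 and -203 bp in h1D-h2D Top1-AID cells, so that all 4 peaks began inside the gene, against 185 to 824 bp in the 7 others.

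The other genes called spanned a wide range of differences. RPL13A, named after its values were seen, had the largest of the 16, at -355 ± 26.5 bp in the combined mutants (n = 3), as against 2306 ± 1183 bp in the other libraries (n = 7), or -2661 bp. In the other auxin libraries except Sen1-AID replicate 2, its peak was 4492 to 5997 bp wide and also covered SUB2, RPS16B and RPP1A. That border cannot be assigned to RPL13A alone. In Sen1-AID replicate 2 the reach was -308 bp. RPL35A had the largest difference among those with a peak in all 4 combined mutants, at 69.3 ± 430 bp in the combined mutants (n = 4), as against 1562 ± 232 bp in the other libraries (n = 6), or -1493 bp. RPL8A had the smallest of the 16, at 273 ± 245 bp in the combined mutants (n = 4), as against 619 ± 111 bp in the other libraries (n = 7), or -346 bp. RPL3 averaged 284 ± 139 bp in the combined mutants, as against 767 ± 217 bp in the other libraries. RPL27B, RPL14A and RPL7B, measured in 3 combined-mutant libraries each, differed by -771, -1619 and -492 bp. The remaining genes called, RPL1B, RPL23B, RPL36A, RPL40A and RPL40B, are named after their values were seen. RPL40A and RPL40B encode ubiquitin fused to a ribosomal protein. RPL2B was not called: its 5′ reach came to -297 and 36 bp in h1D-h2D Sen1-AID cells, but 945 and 811 bp in h1D-h2D Top1-AID cells, against 939 and 869 bp in WT.

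The calls rest on a small number of libraries. Without Sen1-AID replicate 2, 21 of the 29 genes and 138 of all genes tested were called. Without any 1 of the 10 other libraries none was called. Of the 16 to 29 ribosomal genes still tested, 11 to 23 had an unadjusted exact permutation p below 0.05 with a shorter reach. Among all genes, of which 259 to 398 were tested, 77 to 156 did. The smallest p possible was then 0.00476 or 0.00833, and it was 0.00476 without Sen1-AID replicate 2 as well. None was called either with only peaks at or above the pooled median score, where 10 of the genes could be tested, or with 1 of the combined mutants alone. Against both WT libraries alone, the 5′ reach was shorter in both h1D-h2D Sen1-AID libraries at 23 of 25 genes (92%, beside 56.1% of all genes measured) and in both h1D-h2D Top1-AID libraries at 27 of 29 (93.1%, beside 73.5%).

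**Figure D4:**
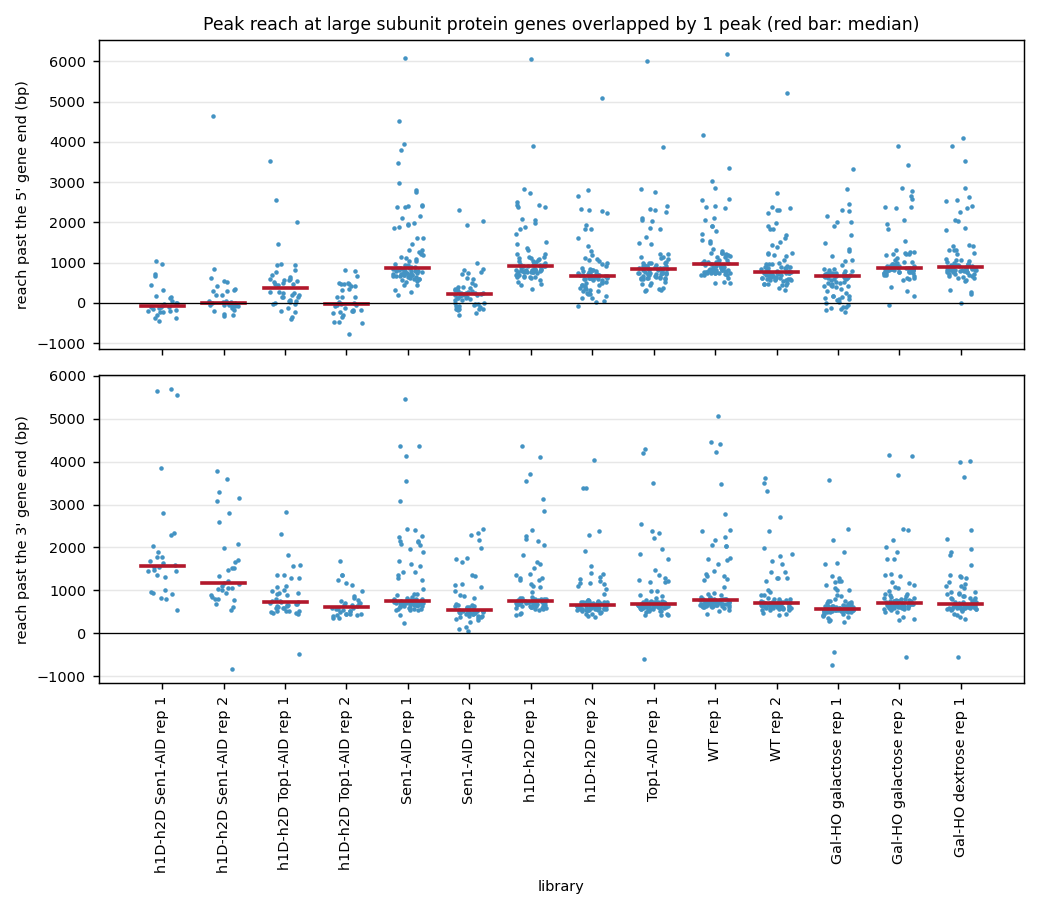
Reach of the peak past the 5′ gene end (top) and the 3′ gene end (bottom), in bp, at each of the 81 genes overlapped by a single peak, for each library, with 1 point per gene and a red bar at the median. The 5′ medians of the combined mutants lie at -84.5 to 363.5 bp, and the 3′ medians of h1D-h2D Sen1-AID cells stand out at 1572 and 1160 bp.

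At the 3′ side the libraries of the 2 combined mutants did not overlap in their medians, a difference that 2 libraries against 2 cannot test. The median 3′ reach came to 1572 and 1160 bp in h1D-h2D Sen1-AID cells and 722.5 and 621 bp in h1D-h2D Top1-AID cells, against 747 and 545 bp in Sen1-AID and 765 and 704 bp in WT. Other coding genes with a single peak showed the same split, so it was not particular to the set. Their medians were 1273 and 1211.5 bp in h1D-h2D Sen1-AID cells and 948 and 774 bp in h1D-h2D Top1-AID cells. In Sen1-AID they were 758 and 612.5 bp, and in WT 778 and 721 bp. In h1D-h2D Sen1-AID cells the 3′ reach was longer in both libraries than in both WT libraries at 14 of 25 genes (56%, beside 48% of all genes measured) and shorter at 4 of 25 (beside 33.4%). In h1D-h2D Top1-AID cells it was longer at 0 of 29 (beside 2.21%) and shorter at 21 of 29 (beside 66.2%).

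RPL3 (chromosome XV, 444686 to 445849) gained most in the mean among genes whose reach could be measured in all 4 libraries of h1D-h2D Sen1-AID and WT. Its 3′ reach came to 3861 and 3789 bp in h1D-h2D Sen1-AID cells, where the peak covered YNG1, CYT1 and MSA1, against 741 and 598 bp in h1D-h2D Top1-AID cells, 1286 and 608 bp in Sen1-AID, 1608 and 745 bp in h1D-h2D, 1247 bp in Top1-AID, and 1619 and 764 bp in WT. The long peak was also found in the Gal-HO strain, at 3567 and 3689 bp in galactose and 3640 bp in dextrose, where no RNase H gene is labelled as deleted. RPL15A and RPL14B, named after their values were seen, had a peak in replicate 1 alone of h1D-h2D Sen1-AID and longer reaches in that library. RPL15A reached 5546 bp against 715 and 717 bp in WT, and RPL14B reached 5643 bp against 1368 and 1286 bp in WT. In Sen1-AID replicate 1, RPL15A had a similar reach of 5470 bp, whereas RPL14B reached 1419 bp. RPL32 reached 2282 and 2584 bp in h1D-h2D Sen1-AID cells, and 763 and 752 bp in WT. RPL14A combined both shifts: in h1D-h2D Sen1-AID cells the reach was -108 and -17 bp at the 5′ end and 2035 and 2086 bp at the 3′ end, against 2106 and 1835 bp at the 5′ end and 886 and 713 bp at the 3′ end in WT.

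RPL16B carries a limit of its own. Its 3′ reach came to 2791 and 2802 bp in h1D-h2D Sen1-AID cells, against 944 and 898 bp in WT, and the longer peak covered TOM7, LAT1 and RNH201. RNH201 is one of the genes read as deleted in that strain, so the edited locus lies under this peak, and its part in the reach was not tested. In h1D-h2D, which carries the same deletion, the reach was 1098 and 718 bp, and in h1D-h2D Top1-AID cells it was 1585 and 649 bp.

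**Figure D5:**
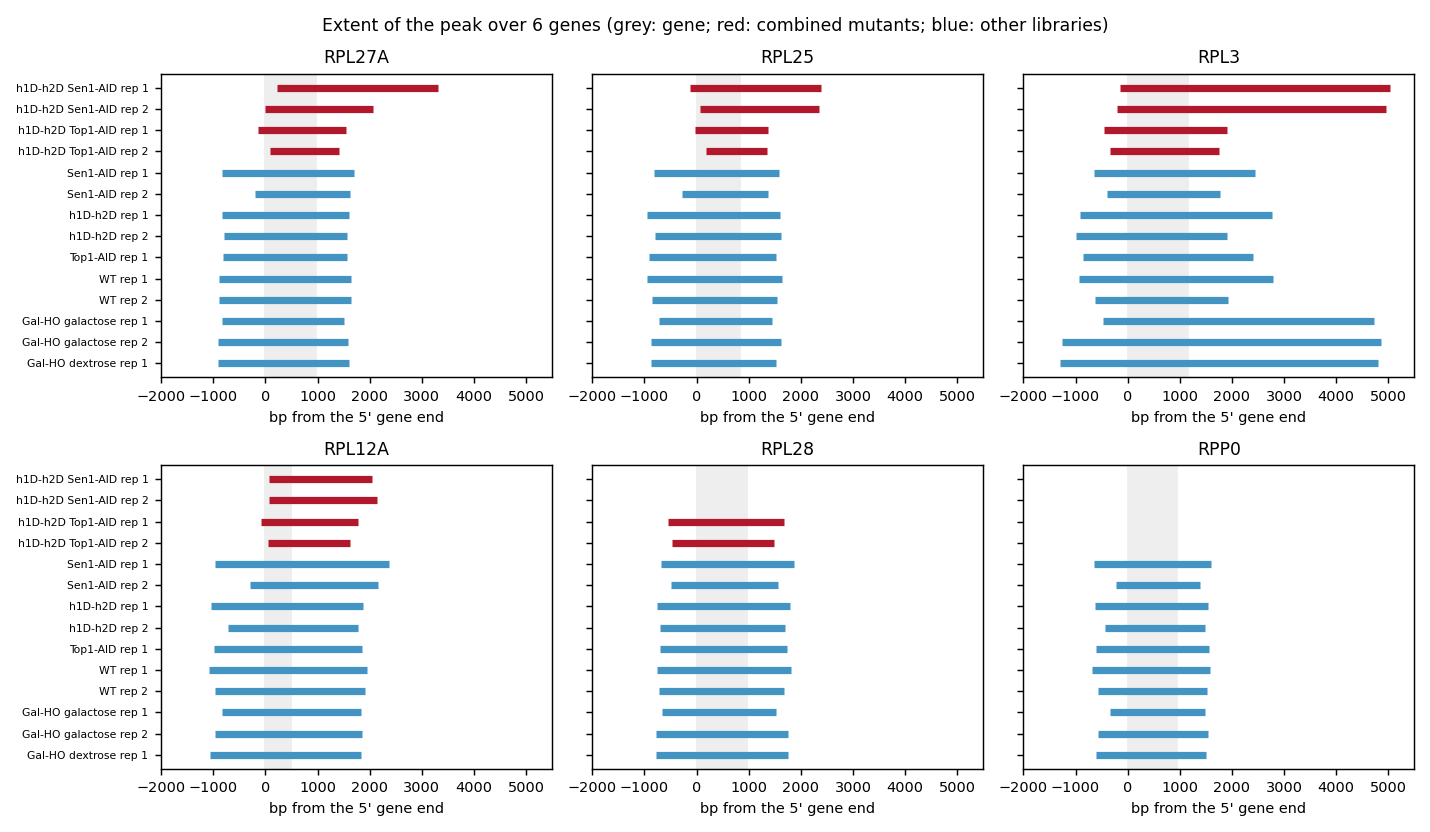
Extent of the peak over RPL27A, RPL25, RPL3, RPL12A, RPL28 and RPP0 in each library, in bp from the 5′ gene end in the direction of transcription, with the gene in grey, the combined mutants in red and the other libraries in blue. Red bars begin near or inside RPL27A, RPL25 and RPL12A, the h1D-h2D Sen1-AID and Gal-HO bars run far past RPL3, and no red bar lies over RPP0.

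Depletion of Sen1 was also set against its presence, with and without RNase H. Over the 4 libraries of h1D-h2D Sen1-AID cells and Sen1-AID against the 7 with Sen1, 34 of the 81 genes could be tested. The exact permutation test with Benjamini-Hochberg adjustment over 583 genes called 0 genes, or 0%, with a longer or shorter 3′ reach, and the smallest adjusted p was 0.0505. At an unadjusted p below 0.05 the reach was longer at 5 of the 34, beside 147 genes or 25.2%, and shorter at 0, beside 21 genes or 3.6%. The median difference was 228 bp over the 34 and 67.3 bp over the other genes, and it was -41.1 bp for Sen1-AID alone, a change of sign. Without Sen1-AID replicate 2 it was 294 bp.

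The 5 genes were RPL12A, RPL27A, RPL27B, RPL32 and RPL35A. RPL12A has SNR80, a snoRNA gene, 400 bp downstream on the same strand. Its 3′ reach came to 1548 and 1650 bp in h1D-h2D Sen1-AID cells and 1881 and 1654 bp in Sen1-AID, against 1279 and 1133 bp in h1D-h2D Top1-AID cells, 1380 and 1271 bp in h1D-h2D, 1355 bp in Top1-AID, and 1456 and 1423 bp in WT. All 4 Sen1-depleted values lay above the other 7, with means of 1683 ± 141 bp in the Sen1-depleted libraries (n = 4) and 1328 ± 110 bp in those with Sen1 (n = 7) and an adjusted p of 0.0505 by the exact permutation test. RPL27B has SNR13, whose transcripts need Sen1 to end correctly, 354 bp downstream on the same strand. Its 3′ reach was 3590 bp in h1D-h2D Sen1-AID replicate 2, the only library of that strain with a peak there, and 2421 and 2297 bp in Sen1-AID, against 979 to 1259 bp in the 7 libraries with Sen1 (adjusted p = 0.0623, exact permutation test). RPL36A, the remaining gene with a snRNA or snoRNA gene downstream on its own strand (SNR11, at 364 bp) and named after its values were seen, averaged 2832 ± 438 bp in Sen1-depleted libraries (n = 3) and 1998 ± 781 bp in the others (n = 7), with an exact permutation p of 0.117 before adjustment. The part of these downstream genes in the 3′ reach was not tested.

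Other genes of the ribosome pathway were far less occupied, apart from the small subunit. Small subunit protein genes were covered at 28.8 ± 2.63 of 57 in the combined mutants (n = 4), as against 52.1 ± 5.08 in the other auxin libraries (n = 7). Mitochondrial large subunit protein genes, made for a separate ribosome, were covered at 2.25 ± 0.957 of 34 in the combined mutants, as against 3.29 ± 1.11 in the other auxin libraries. Large subunit assembly factor genes were covered at 5.25 ± 2.22 of 67 in the combined mutants, as against 10.3 ± 3.25 in the other auxin libraries. In that order the mean shares were 7.84% and 15.4%, beside 6.62% and 9.66% for the mitochondrial list and 50.4% and 91.5% for the small subunit. Over all nuclear genes they were 11.2% and 23.3%, so lower coverage in the combined mutants was not particular to these lists. Of 9 regulators of ribosomal protein genes, RAP1, FHL1 and IFH1 included, the combined mutants covered 0 and the others 0.571 ± 0.787. By Fisher's exact test with adjustment none of these genes passed.

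The Gal-HO libraries resembled WT in coverage. Peaks covered 78 and 77 of the 81 genes in galactose, beside 18.9% and 24.5% of all nuclear genes, and 76 in dextrose, beside 24.8%. Of the 76 genes covered in dextrose, 0 lacked a peak in both galactose libraries, beside 10.5% of all genes, and RPL19B was the only 1 of 5 bare genes to have a peak in both galactose libraries, beside 1.66%. RPL2A had no peak in any of the 3, but had one in all 7 other auxin libraries. RPL15B, bare in WT, had a peak in all 3 Gal-HO libraries, in Sen1-AID replicate 1 and in Top1-AID, shared with YMR122C and NCW1 on its 5′ side. That peak entered the 615 bp gene only in part in Gal-HO and Top1-AID, with a 3′ reach of -450 and -547 bp in galactose, -558 bp in dextrose and -613 bp in Top1-AID, so in Top1-AID the overlap is close to the smallest size counted. RPL39 stood at percentiles of 12.7 and 97.2 in galactose and 97.0 in dextrose, and the low value went with a peak of 1427 bp that reached SWE1 only, where the others were 4128 and 4152 bp wide. The strain background and the treatment both differ between Gal-HO and WT and cannot be told apart.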

How the data were processed

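Each deposited file lists the Rad52 peaks of 1 library, as chromosome, start, end and a score; the score's scale is not given in the sources used here. Per the submitters' processing notes the authors used Bowtie2, MACS2 and sacCer3; versions, and whether a control library entered, are not given there. Genes were placed with RefSeq's R64 gene table, with strand from the locus tag, and coordinates are 1-based. The deposited score was used only as a percentile within its own list. Reach was measured at genes overlapped by exactly 1 peak. Tests were run per gene over libraries in Python 3.11.15 with SciPy 1.17.1, two-sided, adjusted over all genes tested at a threshold of 0.05, and checked on simulated data. The members, the gene lists and the naming rule were chosen with earlier results of these data known. The rule names the stalk genes, the 6 highest in WT, up to 6 present in all 14 libraries, up to 8 present in all 7 others and no combined mutant, up to 4 for each combined mutant alone, the 6 largest 3′ and 4 largest 5′ shifts, genes bare in WT or gained, and pairs that part; other genes were named after their values were seen, and 1 gene that the rule names is not reported here. No DNA or protein sequence, promoter motif or intron was analysed here. Alternatives were a score limit at the pooled median, lists of 254 peaks, peaks within 1 kb joined, another overlap rule, other filters, each combined mutant alone, a replicate block and leaving out each library.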

Additional observations from a re-analysis of the deposited data

How the results depend on the processing

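Peak lists carry no read counts, so depth limits every count of covered genes and every border, and a missing peak may be a peak under the caller's limit. With equal list lengths the difference in covered genes was -25.0 in place of -42.0, the genes with shorter 5′ reach numbered 56 in place of 87, and the WT peaks lost numbered 14 in Sen1-AID, 3 in h1D-h2D and 5 in Top1-AID. With peaks at or above the pooled median score, 0 of 10 genes of the set and 0 of 109 genes overall had a shorter 5′ reach, and 57 WT peaks were lost in h1D-h2D Top1-AID, 3 in Sen1-AID and 12 in Top1-AID. With genes present in at least 4 libraries, 142 genes and 11 of the set were called less often covered, or 18.6% and 19.3% of those present in all 7 other auxin libraries. The 5′ calls were 0 genes, 0 of the set among them, for h1D-h2D Sen1-AID alone, for h1D-h2D Top1-AID alone and with a replicate block. Same-numbered libraries deviated together with correlations of -0.0372 to 0.372 over 10 pairs of groups. The 3 over 0.1 were those among WT, Sen1-AID and h1D-h2D. The numbers are thus not taken to pair the samples across all groups. The median difference in 3′ reach with Sen1 depleted was -41.1 bp for Sen1-AID alone in place of 228 bp. Leaving out 1 library in turn gave 0 to 305 genes and 0 to 28 of the set less often covered, 0 to 1 gene more often, 0 to 138 genes and 0 to 21 of the set with shorter 5′ reach, 0 to 22 lost in Sen1-AID, 43 to 51 lost in h1D-h2D Sen1-AID and 32 to 45 in h1D-h2D Top1-AID. The cause of these changes was not tested. Gene by gene, the sign of the 3′ difference with Sen1 depleted turned for Sen1-AID alone at RPL31A (-4.14 bp), RPL17B (-232 bp), RPL14A (-127 bp), RPL16B (-320 bp), RPL25 (-50.6 bp), RPL3 (-99 bp) and RPL33A (-106 bp), and for h1D-h2D Sen1-AID alone at RPL8A (55.9 bp) and RPL42B (8.14 bp). Leaving out 1 library in turn, it ran from -3.81 to 296 bp at RPL31A, -24.0 to 489 bp at RPL17B, -43.1 to 29.2 bp at RPL8A and -34.9 to 39.8 bp at RPL42B. The 5′ difference at RPL2B was 37.4 bp for h1D-h2D Top1-AID alone, and the difference in the share of libraries with a peak at RPL35A was -0.607 at the stricter score. None of these turned values was called.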
